A study of Mus musculus with 4 samples.

Results

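Of the 18298 genes with a read in at least 1 of 4 RNA sequencing (RNA-seq) samples of mouse rib chondrocytes, 60 were at least halved in both Senp6 mutant samples. They were chosen by their RPKM, the reads of a gene scaled by its length and by the reads counted on all genes of the sample: the lower of the 2 wild-type (WT) values had to reach 1 and to be at least 2 times the higher of the 2 mutant values. The rule found 60 of the 11283 genes with both WT RPKM at 1 or above, or 0.532%. Because the difference between WT and mutant samples chose these genes, their differences are given below as a description with no test, and nothing is read from their direction. The same rule turned around, with both mutant RPKM at 1 or above, held for 143 genes.

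Chondrocytes are the cells of cartilage. They build a matrix in which type II collagen fibrils, assembled with types IX and XI, hold the proteoglycan aggrecan, and smaller proteins such as matrilins link the parts. On plastic, chondrocytes are known to lose part of this matrix expression over passages, and cells of the perichondrium, bone, fat and blood can be carried along in the dissection. SENP6 is a protease that removes SUMO2/3 chains from proteins.

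The 2 WT samples were Senp6f/f, with the Senp6 alleles floxed and no Cre, and the 2 Senp6-Mut samples were Dermo1-Cre;Senp6f/f, so that all 4 samples carried the floxed alleles. Dermo1-Cre expresses the recombinase from the Twist2 locus, in condensed mesenchyme and the skeletal cells that come from it, and the WT samples carried no Cre insertion, so the insertion and the loss of Senp6 cannot be told apart. All were C57BL/6 cultures at passage 1 (P1) from the rib cartilage of embryos at embryonic day E18.5. The labels do not say whether a sample was 1 embryo or a pool, so the spread of the WT replicates may be technical. The 2 mutant samples did not hold the same cells, since they differed in Xist, as given below. In the text, a pair of values stands for replicates 1 and 2 in that order, and where 2 pairs are set against each other the WT pair comes first.

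Depth was 21.02 and 26.14 M reads (M, 1e6) on genes in WT replicates 1 and 2, and 30.99 and 28.25 M in Senp6-Mut replicates 1 and 2. Senp6 itself was at 10.8 and 18.02 RPKM in WT and at 12.02 and 8.07 RPKM in Senp6-Mut samples, so the groups overlapped, and a whole-gene value still counts reads from exons outside the floxed part. Xist, transcribed from the inactive X chromosome of females, had 11354 reads in Senp6-Mut replicate 2 and 2 to 5 reads in each of the others, so that this sample alone held RNA of female cells. Without it the rule would have found 105 genes, and the median log2 fold change of the 60 was -2.22 in place of -2.20. Of the markers that define chondrocytes, Col2a1 was at 609 and 659 RPKM in WT and 334 and 445 RPKM in Senp6-Mut samples, Acan at 16.8 and 28.2 RPKM against 16.5 and 15.1 RPKM, and Sox9 at 45.6 and 31.3 RPKM against 24.7 and 23.1 RPKM, while Ihh, of prehypertrophic chondrocytes, was at or near 0 in all 4.

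By known role, and with the roles assigned after the values were seen, 13 of the 60 genes encode cartilage matrix or chondrocyte proteins, 11 belong to fat cells or lipid handling, 16 are other secreted signals and connective tissue proteins, and 20 are of other kinds. In the gene ontology text deposited with the values, 25 of the 60 (41.7%) carry a cellular component with the word extracellular, against 460 of the 11283 genes (4.08%). The annotation fat cell differentiation is carried by 4 (Adipoq, Cebpa, Mrap and Rarres2), or 6.67%, against 26 genes (0.230%). The word triglyceride is carried by 3 (5% against 0.390%), response to corticosteroid by 6 (10% against 0.603%), skeletal by 1 (1.67% against 0.691%) and cartilage by 0 (against 0.0798%), although 13 genes are given a cartilage role here. Of the component terms, intrinsic to membrane is carried by 9 (15% against 13.7%) and intracellular membrane-bounded organelle by 12 (20% against 24.9%). No test was run on these shares. The genes were shorter and less expressed than most: the median gene length in the files was 2138 bases against 2863 for the 11283 genes, and the median mean WT RPKM was 6.29 against 11.1. The mutant sample with fewer reads had a median of 64.5 reads on these genes, against 955 on all. The 60 genes lie on 19 chromosomes, with at most 7 on any 1.

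**Figure D1:**
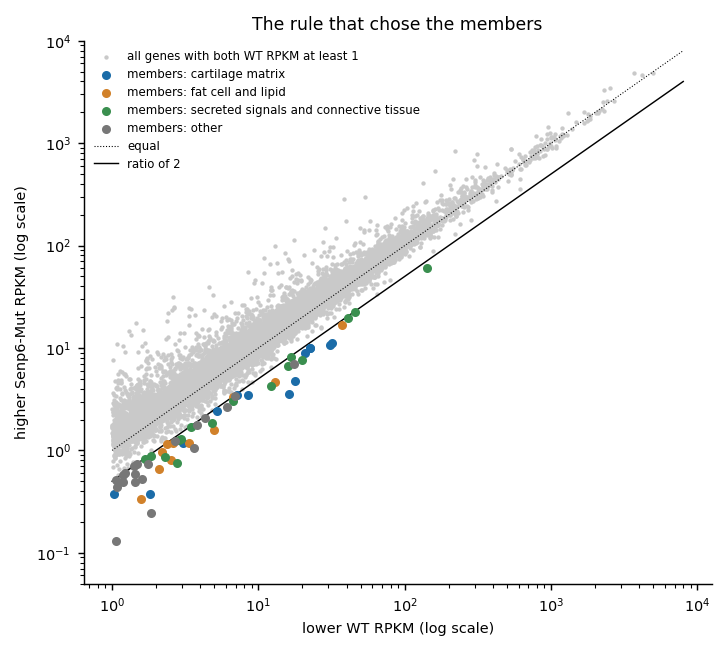
Each point is a gene, with the lower of its 2 WT RPKM on the horizontal axis and the higher of its 2 Senp6-Mut RPKM on the vertical axis, both on log scales. The 60 genes, coloured by role, lie by construction below the solid line of ratio 2 and are spread over WT levels from just above 1 to 141 RPKM.

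The promoters of these genes were looked at for short sequences they share, with no test. RefSeq promoter windows (GRCm38.p6, 250 bases before and 50 after a transcription start) were held for 40 of the 60 genes, as 50 windows. A TATA box (TATAAA, either strand) was in 10 of the 50 windows (20%), against 6.82% of 11562 windows of genes with both WT RPKM at 1 or above and 13.6% of 32851 windows in all. In 4 of the 10 it stood between 28 and 30 bases before the start, the usual place of this element, and these 4 windows come from 3 of the roles: Cebpa, a transcription factor of fat cells, Agt, the precursor of angiotensin, Angpt4, a ligand of the TIE2 receptor, and Chad, a cartilage matrix protein. They are shown 5′ to 3′ with the last 50 bases after the start site and every match to the motifs searched in capitals, so that the common position of TATAAA can be read off.
Cebpa (chr7:35119043-35119342, plus strand): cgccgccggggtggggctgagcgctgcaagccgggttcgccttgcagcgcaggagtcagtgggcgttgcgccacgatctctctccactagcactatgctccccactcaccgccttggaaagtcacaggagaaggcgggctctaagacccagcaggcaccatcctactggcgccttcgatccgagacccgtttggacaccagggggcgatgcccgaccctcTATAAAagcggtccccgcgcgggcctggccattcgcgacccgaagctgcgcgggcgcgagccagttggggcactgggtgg
Agt (chr8:124569657-124569956, minus strand): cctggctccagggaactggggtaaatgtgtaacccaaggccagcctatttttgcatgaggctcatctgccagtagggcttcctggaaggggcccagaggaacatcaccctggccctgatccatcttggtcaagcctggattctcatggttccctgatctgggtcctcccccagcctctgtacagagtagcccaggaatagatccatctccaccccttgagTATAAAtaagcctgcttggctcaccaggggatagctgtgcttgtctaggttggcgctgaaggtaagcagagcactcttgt
Angpt4 (chr2:151910957-151911256, plus strand): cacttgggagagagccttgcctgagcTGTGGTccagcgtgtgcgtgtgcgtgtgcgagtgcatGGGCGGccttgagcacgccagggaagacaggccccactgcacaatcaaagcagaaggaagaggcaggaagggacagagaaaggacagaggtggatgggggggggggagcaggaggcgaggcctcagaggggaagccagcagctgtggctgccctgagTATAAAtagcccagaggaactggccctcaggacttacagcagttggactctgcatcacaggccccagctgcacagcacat
Chad (chr11:94564797-94565096, plus strand): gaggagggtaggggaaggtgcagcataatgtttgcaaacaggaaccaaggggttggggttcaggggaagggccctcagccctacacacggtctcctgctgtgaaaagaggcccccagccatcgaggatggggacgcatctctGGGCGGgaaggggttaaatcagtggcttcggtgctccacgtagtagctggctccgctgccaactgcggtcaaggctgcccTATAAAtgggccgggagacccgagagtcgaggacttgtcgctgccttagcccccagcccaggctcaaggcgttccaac

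Besides TATAAA, the capitals in Angpt4 and Chad mark a GC box (GGGCGG, either strand), and in Angpt4 also a RUNX element (TGTGGT, either strand). The GC box was in 22 of the 50 windows (44%), against 64.7% of the windows of expressed genes and 35.7% of all. The RUNX element was in 8 (16%, against 11.9% and 16.8%), an AP-1 element (TGANTCA) in 4 (8%, against 4.84% and 7.81%), the CCAAT box (CCAAT) in 14 (28%, against 37.6% and 37.4%) and a SOX element (AACAAAG) in 0 (against 3.71% and 5.85%). Ucma, which codes for a small protein of the upper growth plate, held a RUNX, an AP-1 and a CCAAT match in 1 window, shown for that combination.
Ucma (chr2:4975872-4976171, plus strand): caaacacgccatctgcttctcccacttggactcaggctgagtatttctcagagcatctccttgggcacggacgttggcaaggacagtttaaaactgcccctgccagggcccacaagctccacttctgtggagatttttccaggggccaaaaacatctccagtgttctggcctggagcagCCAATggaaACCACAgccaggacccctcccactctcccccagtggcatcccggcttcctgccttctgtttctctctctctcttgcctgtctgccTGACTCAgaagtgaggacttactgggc
The matches shown do not overlap each other. They are descriptions of letters in the windows, and no binding was measured.

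The cartilage matrix genes were lower in both mutants by the rule, and their WT samples were closer than those of the fat and the secreted genes. The median ratio of mean WT to mean Senp6-Mut RPKM over the 13 genes was 3.52, from 2.69 to 8.76. WT replicate 1 was at a median of 1.05 times WT replicate 2 (range 0.712 to 1.49), and for none of the 13 did the WT samples differ 2-fold. The higher WT value was a median of 1.27 times the lower, which is above the 1.18 of all 11283 genes and below the 2.19 of the fat and the 2.37 of the secreted genes. The mutant samples were less alike. Senp6-Mut replicate 2, the sample with Xist, was the higher in 12 of 13, at a median of 1.79 times replicate 1. The exception was Chad. Senp6-Mut replicate 2 was the higher in 57.4% of the 11283 genes and in 61.7% of the 60.

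Type IX collagen, which coats the type II fibril, was represented by all of its chains. Col9a1 was at 32.2 and 31.7 RPKM in WT replicates 1 and 2 and at 7.29 and 11.1 RPKM in Senp6-Mut replicates 1 and 2. Col9a2 was at 33.7 and 22.5 RPKM in WT and 5.26 and 9.93 RPKM in Senp6-Mut samples, and Col9a3 at 30.1 and 22.5 RPKM against 5.57 and 9.94 RPKM. The groups were apart in all 3 by the rule, and the mutant order was the same, with replicate 2 above replicate 1. Col11a2, a chain of the type XI collagen at the core of the fibril, was at 43.8 and 30.8 RPKM in WT and 7.10 and 10.6 RPKM in Senp6-Mut samples, the highest WT level of the cartilage genes. By edgeR its log2 fold change was -2.12 ± 0.26 (SE, n = 2 and 2), and that of Col9a1 was -1.85 ± 0.20 (SE, n = 2 and 2). Col11a1, a chain of type XI that is not among the 60, was at 139 and 127 RPKM against 97.04 and 89.0 RPKM, and Col2a1, given above, was also lower in both mutants but by less than 2-fold.

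The widest ratios of the cartilage genes were those of low or middle level. Matn1, a matrilin of non-articular cartilage, was at 2.71 and 1.82 RPKM in WT and 0.145 and 0.371 RPKM in Senp6-Mut samples. Its lower WT value was 4.89 times the higher mutant value, with a log2 fold change of -3.18 ± 0.49 (SE, n = 2 and 2). Matn1 had only 9 and 21 reads in the 2 mutants, so its ratio is loose. Ucma was at 16.6 and 16.1 RPKM against 1.39 and 3.52 RPKM, with a log2 fold change of -2.79 ± 0.40 (SE, n = 2 and 2). The WT samples of Ucma were 1.03-fold apart and its mutants 2.54-fold, with replicate 2 the higher. 3110079O15Rik, now named Snorc, codes for a transmembrane proteoglycan of chondrocytes and stood at 17.8 and 17.6 RPKM in WT and 1.89 and 4.75 RPKM in Senp6-Mut samples. It had the same mutant order and nearly the same mutant ratio, 2.52, as Ucma. Matn3, of the same family as Matn1, had a smaller difference, at 5.76 and 5.24 RPKM against 1.61 and 2.42 RPKM.

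The other cartilage genes included an inhibitor, proteoglycans and a lectin. Lect1, now named Cnmd and coding for chondromodulin, an inhibitor of vessel growth, was at 20.8 and 29.3 RPKM in WT and 5.39 and 8.85 RPKM in Senp6-Mut samples. Mia, secreted by chondrocytes, was at 9.79 and 8.53 RPKM against 1.88 and 3.46 RPKM. Epyc, the small leucine-rich proteoglycan epiphycan, was at 7.13 and 9.08 RPKM against 2.28 and 3.45 RPKM. Lect1, Epyc and Clec3a were the 3 cartilage genes higher in WT replicate 2 than in WT replicate 1. Chad, the cell-binding matrix protein chondroadherin, was at 3.20 and 3.06 RPKM against 1.19 and 1.14 RPKM, and Clec3a, a lectin of cartilage, at 1.02 and 1.34 RPKM against 0.132 and 0.375 RPKM. Clec3a had only 12 and 31 reads in the 2 mutants, so its ratio is loose. Parts of the transcripts of Mia (34.4% of its 50-base stretches) and Epyc (39.8%) also occur in another gene model. How the authors' counting split such reads is not given in the sources used here, and the same holds for Rarres2 (32.4%), Sfrp2 (12.9%) and Gpd1 (10.3%). The shares are of the longest GENCODE transcript, of 962 bases for Mia, 2539 for Epyc and 2513 for Rarres2. The deposited gene lengths were shorter, at 583, 1723 and 708 bases. For these genes the shared stretches may thus lie outside what was counted.

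**Figure D2:**
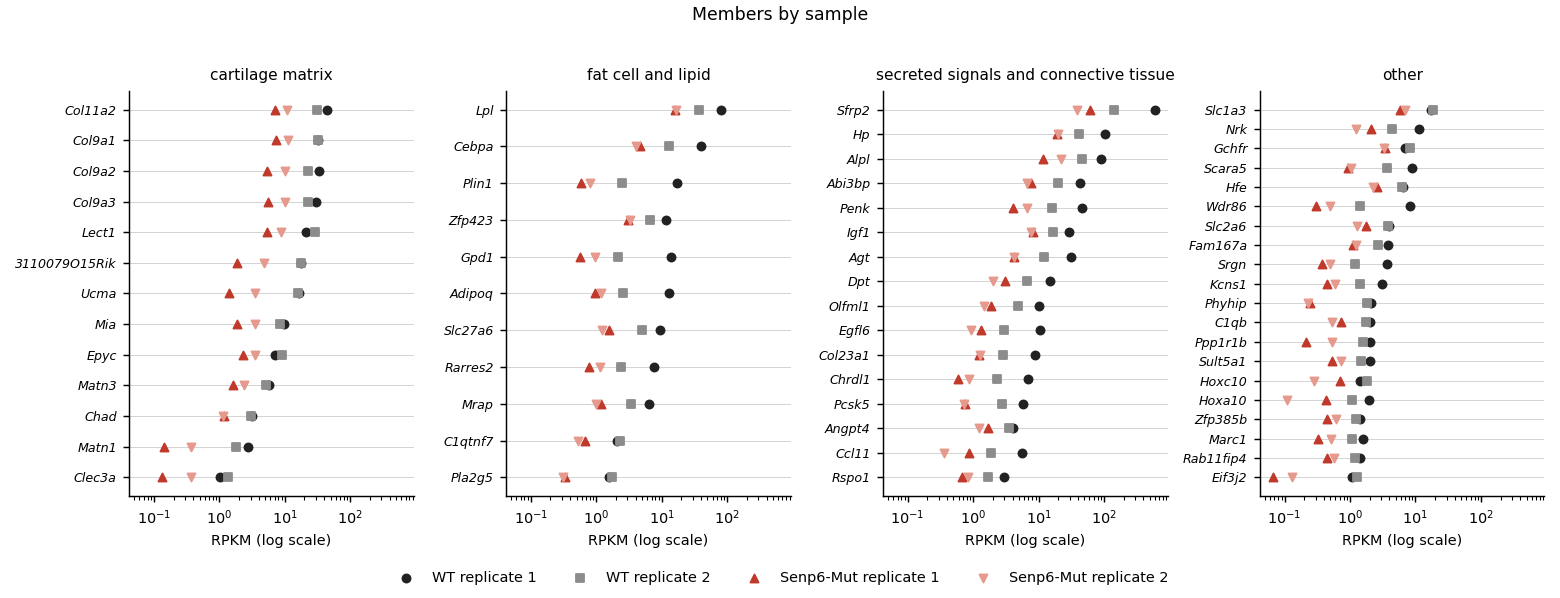
RPKM of the 60 genes in each sample, on a log scale, in 4 panels by role and ordered by mean WT RPKM within a panel; circles and squares are WT replicates 1 and 2, and triangles up and down are Senp6-Mut replicates 1 and 2. In the cartilage panel the WT symbols are at most 1.49-fold apart, while in the fat and the secreted panels WT replicate 1 often stands far to the right.

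The 11 fat and lipid genes had the highest median ratio of group means of the 4 roles and the widest range of WT ratios. The median ratio of mean WT to mean Senp6-Mut RPKM was 5.13 (2.90 to 14.1). WT replicate 1 was the higher WT sample in 9 of 11, at a median of 2.19 times replicate 2 (range 0.910 to 6.78), and in 6 the WT samples differed over 2-fold. The higher mutant value was a median of 1.22 times the lower, against 1.79 in the cartilage genes.

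Plin1, the perilipin that coats lipid droplets, was at 17.0 and 2.51 RPKM in WT replicates 1 and 2 and 0.584 and 0.805 RPKM in Senp6-Mut replicates 1 and 2. Gpd1, which makes the glycerol phosphate of triglycerides, was at 13.9 and 2.18 RPKM against 0.563 and 0.958 RPKM. Adipoq, the fat cell hormone adiponectin, was at 12.8 and 2.61 RPKM against 0.968 and 1.18 RPKM. In these 3 genes WT replicate 2 was nearer to the mutants than to WT replicate 1, so that most of the difference between the group means came from WT replicate 1. The edgeR log2 fold change was -3.87 ± 0.91 (SE, n = 2 and 2) for Plin1, -3.46 ± 0.89 (SE, n = 2 and 2) for Gpd1 and -2.90 ± 0.73 (SE, n = 2 and 2) for Adipoq, each with a larger standard error than Col11a2.

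Cebpa, whose promoter is shown above, was at 39.8 and 12.9 RPKM in WT and 4.61 and 4.01 RPKM in Senp6-Mut samples. Lpl, the lipase that frees fatty acids from lipoproteins, was the highest of these genes, at 81.1 and 37.0 RPKM against 16.2 and 16.7 RPKM. Rarres2, the adipokine chemerin, was at 7.53 and 2.38 RPKM against 0.775 and 1.15 RPKM, on only 17 and 23 reads in the mutants. The WT samples of all 3 differed over 2-fold, with replicate 1 the higher, and the mutant pair of Lpl was 1.03-fold apart. Zfp423, a transcription factor of fat cell precursors, was at 11.7 and 6.73 RPKM against 3.03 and 3.33 RPKM, with WT samples 1.74-fold apart. Mrap, an accessory protein of melanocortin receptors, was at 6.43 and 3.36 RPKM against 1.17 and 0.999 RPKM, and Slc27a6, a fatty acid transporter, at 9.38 and 4.98 RPKM against 1.58 and 1.23 RPKM.

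2 lipid genes did not follow this pattern and had close WT values. Pla2g5, a secreted phospholipase, was at 1.58 and 1.73 RPKM in WT and 0.332 and 0.314 RPKM in Senp6-Mut samples, a lower WT value 4.76 times the higher mutant value. C1qtnf7, a secreted relative of adiponectin, was at 2.10 and 2.27 RPKM against 0.664 and 0.536 RPKM. For both, WT replicate 2 was slightly the higher WT sample and the mutant values were close. The mutant reads were few, 22 and 19 on Pla2g5 and 34 and 25 on C1qtnf7, so these ratios are loose.

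The 16 other secreted and connective tissue genes were higher in WT replicate 1 than in WT replicate 2 without exception, at a median of 2.37 times (1.18 to 4.21), and in 12 of them by over 2-fold. The median ratio of mean WT to mean Senp6-Mut RPKM was 4.65 (2.58 to 7.37). Sfrp2, a secreted modulator of WNT signalling, was by far the most abundant of the 60 genes, at 593 and 141 RPKM in WT replicates 1 and 2 and 61.0 and 38.6 RPKM in Senp6-Mut replicates 1 and 2. Its WT samples lay 4.21-fold apart, more than the 2.31-fold between the lower WT and the higher mutant sample, and its log2 fold change of -2.94 ± 0.75 (SE, n = 2 and 2) carried a large standard error.

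Signalling genes among the 16 came from several pathways. Rspo1, an enhancer of WNT signalling, was at 2.98 and 1.67 RPKM in WT and 0.686 and 0.830 RPKM in Senp6-Mut samples. Chrdl1, an antagonist of bone morphogenetic proteins (BMPs), was at 6.96 and 2.29 RPKM against 0.578 and 0.870 RPKM. Igf1, the insulin-like growth factor, was at 29.4 and 16.7 RPKM against 8.15 and 7.68 RPKM. Angpt4 had the closest WT values of the 16, at 4.11 and 3.48 RPKM, with 1.71 and 1.23 RPKM in the mutants. Ccl11, the chemokine eotaxin, was at 5.54 and 1.85 RPKM against 0.872 and 0.363 RPKM, and Agt at 31.0 and 12.2 RPKM against 4.17 and 4.22 RPKM. Ccl11 had only 29 and 11 reads in the 2 mutants, so its ratio is loose. Penk, the precursor of enkephalins, was at 46.0 and 15.998 RPKM against 4.05 and 6.70 RPKM. In all 7 the highest of the 4 values was that of WT replicate 1.

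Enzymes and plasma proteins of the group included 2 of the most abundant of the 60 genes. Hp, the haemoglobin-binding plasma protein haptoglobin, was at 105 and 41.0 RPKM in WT and 18.9 and 19.8 RPKM in Senp6-Mut samples. Alpl, the tissue-nonspecific alkaline phosphatase that mineralizing chondrocytes and osteoblasts carry, was at 90.1 and 45.7 RPKM against 11.6 and 22.4 RPKM, and its mutants differed 1.93-fold with replicate 2 the higher, as in the cartilage genes. Pcsk5, a proprotein convertase, was at 5.75 and 2.80 RPKM against 0.744 and 0.727 RPKM, the widest gap between the groups of the 16, with a lower WT value 3.76 times the higher mutant value.

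Matrix and adhesion proteins made up the rest of the group. Abi3bp was at 43.1 and 19.9 RPKM in WT and 7.62 and 6.61 RPKM in Senp6-Mut samples. Dpt, dermatopontin, which binds decorin, was at 14.8 and 6.69 RPKM against 3.04 and 2.03 RPKM. Col23a1, a transmembrane collagen, was at 8.93 and 2.85 RPKM against 1.23 and 1.26 RPKM. WT replicate 1 was over 2-fold above WT replicate 2 in all 3, and also in Egfl6 (10.5 and 2.98 RPKM in WT, 1.30 and 0.918 RPKM in Senp6-Mut samples) and Olfml1 (10.2 and 4.82 RPKM against 1.85 and 1.46 RPKM).

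The 20 genes of other kinds had a median ratio of mean WT to mean Senp6-Mut RPKM of 3.20 (2.28 to 12.1), and in 5 of them (Wdr86, Srgn, Nrk, Scara5 and Kcns1) the WT samples differed over 2-fold. The gene with the widest gap of all 60 was Eif3j2, a copy of the gene of a translation initiation factor subunit, at 1.06 and 1.30 RPKM in WT and 0.0667 and 0.132 RPKM in Senp6-Mut samples. Its lower WT value was 8.06 times the higher mutant value, on 54 and 82 reads in WT and 5 and 9 reads in Senp6-Mut samples. This gene shares 90.8% of its 50-base stretches with Eif3j1, and Eif3j1 was at 1.83 and 2.60 RPKM in WT and 4.76 and 4.19 RPKM in Senp6-Mut samples, higher in both mutants. Of the reads on the 2 copies together, Eif3j2 took 37.2% and 33.7% in WT and 1.41% and 3.11% in Senp6-Mut samples, while the sum of their RPKM was 2.89 and 3.90 in WT and 4.82 and 4.32 in Senp6-Mut samples. How the counting placed reads that match both copies is not given in the sources used here, and its part in the difference was not tested.

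**Figure D3:**
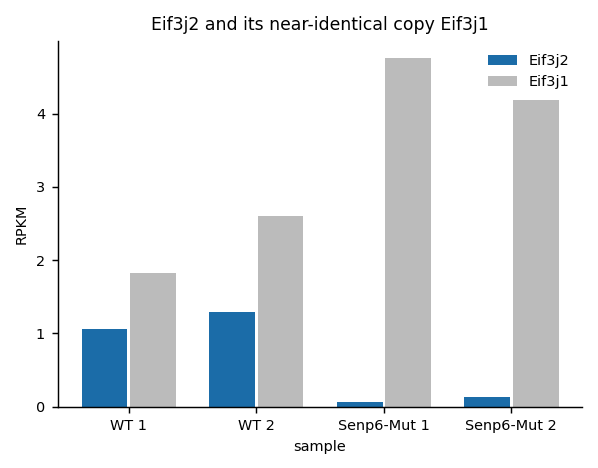
RPKM of Eif3j2 and of its near-identical copy Eif3j1 in each of the 4 samples, as bars from 0 without error bars since each bar is 1 sample. Eif3j2 is above 1 RPKM in both WT samples and at most 0.132 RPKM in the mutants, whereas Eif3j1 is higher in both mutants than in both WT samples.

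Phyhip, which codes for a protein that binds the peroxisomal enzyme phytanoyl-CoA hydroxylase, came next by gap, at 2.10 and 1.84 RPKM in WT and 0.243 and 0.228 RPKM in Senp6-Mut samples. Its WT samples were 1.14-fold apart and its mutants 1.06-fold, and its lower WT value was 7.57 times the higher mutant value. Phyhip had only 21 and 18 reads in the 2 mutants, so its ratio and the closeness of its mutants are loose. None of its 50-base stretches occurs in another gene. Its log2 fold change was -3.09 ± 0.31 (SE, n = 2 and 2). Slc1a3, a glutamate transporter, was the most abundant of the 20, at 17.5 and 18.6 RPKM in WT and 5.76 and 7.03 RPKM in Senp6-Mut samples, with the smallest standard error of the 60 (log2 fold change -1.54 ± 0.15 (SE, n = 2 and 2)).

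Iron and transport genes were among the rest. Scara5, a receptor for ferritin, was at 8.96 and 3.62 RPKM in WT and 0.949 and 1.05 RPKM in Senp6-Mut samples. Hfe, a regulator of iron uptake, was at 6.44 and 6.13 RPKM against 2.62 and 2.26 RPKM, with both pairs of replicates close. The sugar transporter Slc2a6 was at 4.01 and 3.83 RPKM against 1.77 and 1.28 RPKM. With Slc1a3 and Slc27a6 it made up the 3 solute carriers among the 60 genes. Of the 182 solute carriers with both WT RPKM at 1 or above, 47 were lower and 49 higher in both mutants than in both WT samples, near the 21.0% and 25.3% of all 11283 genes. Kcns1, a potassium channel subunit, was at 3.12 and 1.43 RPKM against 0.438 and 0.584 RPKM.

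2 Hox genes, transcription factors of body axis position, were among the 60. Hoxa10 was at 1.94 and 1.08 RPKM in WT and 0.438 and 0.110 RPKM in Senp6-Mut samples, and Hoxc10 at 1.42 and 1.80 RPKM against 0.708 and 0.277 RPKM. In both, Senp6-Mut replicate 1 was 2.55-fold or more above replicate 2, which is the opposite order to the cartilage genes except Chad. The mutant reads were few, 35 and 8 on Hoxa10 and 42 and 15 on Hoxc10, so this order is loose. Of the 23 Hox genes with both WT RPKM at 1 or above, 6 were lower and 4 higher in both mutants, beside 21.0% and 25.3% of all genes.

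The other 11 of the 20 had a mean WT RPKM of 7.92 or less. Ppp1r1b, a phosphatase inhibitor, was at 2.04 and 1.59 RPKM in WT and 0.211 and 0.526 RPKM in Senp6-Mut samples. Wdr86, of the WD repeat proteins, was at 8.20 and 1.44 RPKM against 0.304 and 0.490 RPKM, with WT samples 5.69-fold apart. Srgn, the proteoglycan serglycin of secretory granules, was at 3.70 and 1.18 RPKM against 0.378 and 0.491 RPKM, and Nrk, a kinase, at 11.5 and 4.32 RPKM against 2.08 and 1.24 RPKM, both higher in WT replicate 1. C1qb, a chain of complement C1q made by macrophages, was at 2.02 and 1.77 RPKM against 0.729 and 0.533 RPKM. Mutant reads were few, at 11 and 25 on Ppp1r1b, 17 and 25 on Wdr86, 11 and 13 on Srgn and 24 and 16 on C1qb. The ratios of these genes are loose. Gchfr, a feedback regulator of GTP cyclohydrolase, was at 6.88 and 8.39 RPKM against 3.39 and 3.32 RPKM. Fam167a, Sult5a1, Zfp385b, Marc1 (now Mtarc1) and Rab11fip4 had mean WT RPKM from 1.30 to 3.26 and ratios of the lower WT to the higher mutant value from 2.02 to 2.19, near the limit of the rule.

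The 2 WT samples differed more on these genes than on most, which is a description, since the WT values entered the rule. The higher WT value was a median of 1.62 times the lower over the 60 genes, against 1.18 over the 11283 genes. In 23 of the 60 (38.3%) the WT samples differed over 2-fold, against 287 of the 11283 (2.54%). WT replicate 1 was the higher in 51 of the 60 (85%), against 40.7% of the 11283. Measured against the mean of the mutants, WT replicate 1 was a median of 5.39 times higher and WT replicate 2 a median of 2.90 times higher. The 4 widest WT pairs were Plin1 (6.78-fold), Gpd1 (6.37-fold), Wdr86 (5.69-fold) and Adipoq (4.92-fold). Among the mutants, the higher value was a median of 1.39 times the lower over the 60 genes, against 1.09 over the 11283.

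**Figure D4:**
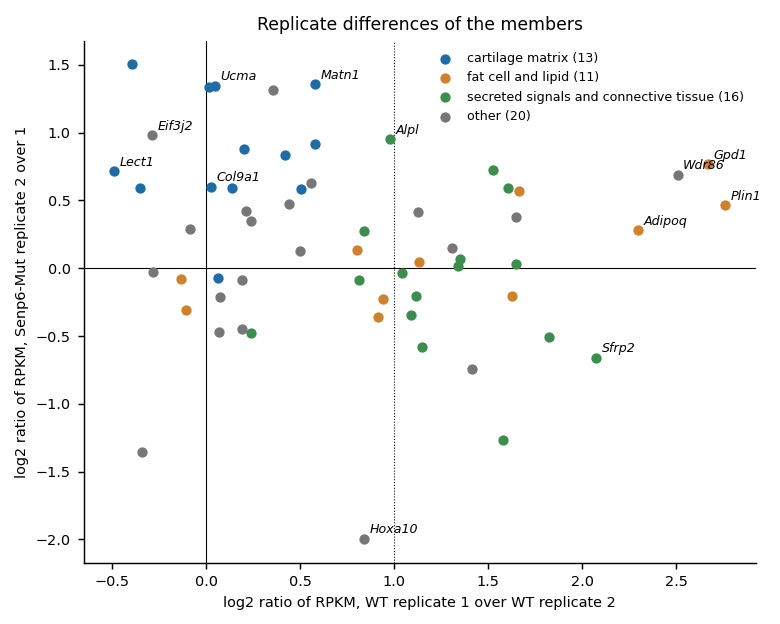
Each point is 1 of the 60 genes, with the log2 ratio of WT replicate 1 to WT replicate 2 on the horizontal axis and the log2 ratio of Senp6-Mut replicate 2 to replicate 1 on the vertical axis, coloured by role; the dotted line marks a 2-fold WT difference. The cartilage genes lie left of the dotted line and, except Chad, above 0 on the vertical axis, while most secreted and fat genes lie right of 0.

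The lists of cell type markers place these values in what the cultures held. In bulk samples, fewer cells of a type and less RNA per cell cannot be told apart. Of the 11283 genes, 21.0% were lower and 25.3% higher in both mutants than in both WT samples, which is the background for the counts that follow. Markers among the 60 genes were lower in both mutants by the rule, so their part of each count was fixed in advance. Of 20 chondrocyte markers, 18 were in the files and 17 had both WT RPKM at 1 or above. Of the 17, 16 were lower in both mutants and 9 were among the 60 genes, and the exception was Col10a1, of hypertrophic chondrocytes, at 1.47 and 2.21 RPKM in WT and 1.76 and 4.24 RPKM in Senp6-Mut samples. The summed RPKM of the list was 1099 and 1066 in WT and 526 and 669 in Senp6-Mut samples, and without the 9 genes it was 910.2 and 903 in WT and 491 and 611 in Senp6-Mut samples. Col2a1, given above, was the main part of that remainder, at 609 and 659 RPKM against 334 and 445 RPKM. The 9 alone summed to 189 and 163 in WT and 34.9 and 57.9 in Senp6-Mut samples.

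Of 10 adipocyte markers, 7 had both WT RPKM at 1 or above and all 7 were lower in both mutants, 3 of them among the 60 genes. The list summed to 246 RPKM in WT replicate 1 and 86.4 in WT replicate 2, against 44.1 and 58.6 in Senp6-Mut samples. The 7 markers outside the 60 genes summed to 135 and 44.3 in WT and 26.3 and 39.9 in Senp6-Mut samples, with Fabp4, a fatty acid carrier of fat cells, the main part at 104 and 30.2 RPKM against 18.48 and 27.0 RPKM. Lep, leptin, was at 0 in both mutants and at most 0.292 RPKM in WT. The adipocyte markers were highest in the WT sample in which the fat and lipid genes were highest. Their part in the differences of those genes was not tested.

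The other lists held few of the 60 genes. Of 15 macrophage and osteoclast markers with both WT RPKM at 1 or above, 10 were lower and 2 higher in both mutants, and 3 overlapped. The list of 24 summed to 121 and 95.1 RPKM in WT and 60.4 and 63.8 in Senp6-Mut samples. Ptprc, the pan-leukocyte marker, was at most 0.0427 RPKM in any sample, and C1qb was at most 2.02 RPKM. Lyz2, another marker of the list, was at 11.1 and 7.85 RPKM in WT and 2.53 and 4.76 RPKM in Senp6-Mut samples. The 2 higher in both mutants were Mrc1 and Cd14, the latter at 2.22 and 2.96 RPKM against 3.25 and 4.56 RPKM. Of 9 osteoblast markers 6 were lower (Alpl among the 60), and Bglap, osteocalcin, was at or near 0. Of 10 markers of tendon and fibrous tissue 6 were lower (Dpt among the 60), and the list summed to 5687 and 3683 RPKM in WT and 3621 and 2578 in Senp6-Mut samples, again highest in WT replicate 1. Striated muscle markers went the other way, with 9 of 11 higher in both mutants and a sum of 142 and 44.1 RPKM in WT against 243 and 272 in Senp6-Mut samples. The part of any of these cell types in the differences of the 60 genes was not tested.

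**Figure D5:**
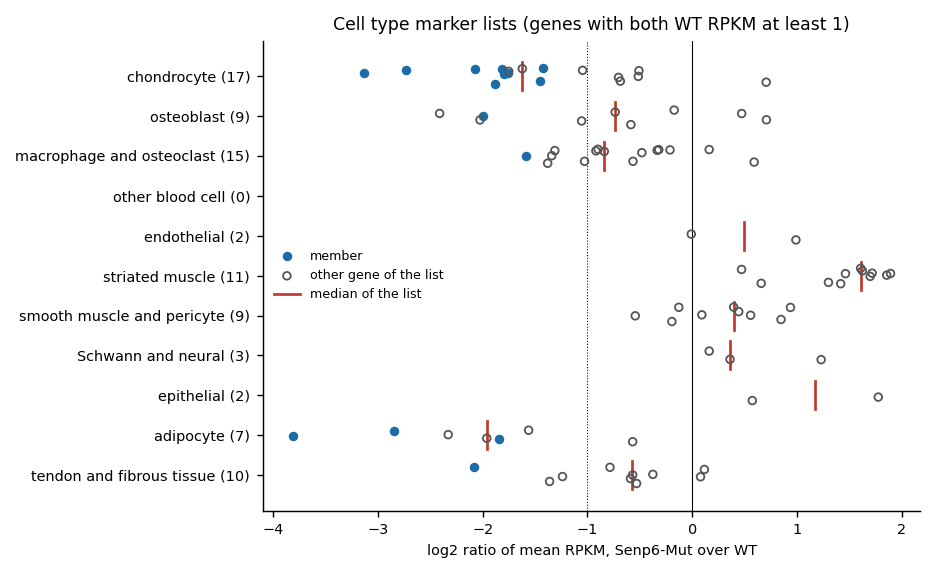
Log2 ratio of mean Senp6-Mut to mean WT RPKM for each marker with both WT RPKM at 1 or above, in rows by cell type with the number of such markers; filled points are among the 60 genes, open points are not, the red bar is the list's median, and the dotted line marks a halving of the mean. The chondrocyte and adipocyte medians are at -1.62 and -1.96 and that of striated muscle is at 1.61. Of the 17 chondrocyte markers 9 are among the 60 genes, so the rule itself puts that median beyond the dotted line. Of the 7 adipocyte markers 3 are among the 60, and of the 11 striated muscle markers 0.

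Of all 11283 genes the rule held for 0.532%, beside which the counts in lists of pathways are given, with nothing read from them. Of 31 collagen genes with both WT RPKM at 1 or above, 16 were lower and 6 higher in both mutants, and 5 were among the 60: the 3 chains of type IX, Col11a2 and Col23a1. Of 50 genes of matrix proteins and mineral regulators, 26 were lower and 9 higher, with 6 among the 60. The WNT list (41 genes, 14 lower and 12 higher) held Sfrp2 and Rspo1, the BMP and TGF-beta list (43 genes, 10 lower and 15 higher) held Chrdl1, the insulin-like growth factor list (17 genes, 6 lower and 5 higher) held Igf1, and the chemokine and cytokine list (24 genes, 9 lower and 5 higher) held Ccl11. None of the 60 was among the 27 genes of sterol and fatty acid synthesis, although 20 of the 27 were lower in both mutants and none was higher. The skeletal transcription factors (47 genes, 17 lower and 12 higher), the Notch list (10 genes), the metalloproteinase list (24 genes), the imprinted genes (26) and the list of fibroblast growth factor, hedgehog and PTHrP genes (16) also held none, and neither did the 39 mitotic and S-phase genes, of which 0 were lower and 5 higher.

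In the edgeR quasi-likelihood fit over 14123 genes all 60 passed the filter on low counts, and their median log2 fold change was -2.20, against 0.01 over all genes. The values are printed with nothing read from them, since the same difference chose the genes. With Benjamini-Hochberg adjustment none of the 60 and none of the 14123 genes (0%) was lower in Senp6-Mut at an adjusted p of 0.05, and the edgeR adjusted p of the 60 ran from 0.0739 to 0.181. At an unadjusted p of 0.05 all 60 were lower, against 6.28% of the 14123 genes. By DESeq2 52 of the 60 were lower at an adjusted p of 0.05, against 1.86% of the genes tested. With 2 samples a group, an exact two-sided permutation test of 1 gene cannot give a p below 0.333.

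At the limit of the rule, the genes on either side differed little in the ratio that sets it. Just inside were Hoxc10 (ratio of the lower WT to the higher mutant RPKM 2.00), Rspo1 (2.01), Zfp423 (2.02) and Zfp385b (2.02). Just outside were Ggt5 at 23.3 and 7.75 RPKM in WT and 3.93 and 3.64 RPKM in Senp6-Mut samples (1.97), Rnf144a at 10.1 and 9.09 against 4.61 and 4.23 RPKM (1.97), Mme at 13.7 and 7.09 against 3.63 and 3.21 RPKM (1.95) and Angpt1 at 7.13 and 4.82 against 2.38 and 2.47 RPKM (1.95). All 4 just outside had the higher WT value in replicate 1.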

How the data were processed

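RNA-seq was performed by a service on 2 WT and 2 Senp6-Mut cultures of rib chondrocytes, with oligo(dT) selection and no strand marking. The authors deposited raw read counts by gene for each sample. The authors also deposited the RPKM, scaled by gene length and by the reads counted on genes, and the percent of the gene covered by reads, which was not tested. The submitters' processing notes name mm9 and SAMtools, and the aligner and counter are not given in the sources used here. Genes absent from a file were set to 0.

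The members, lists and tests were chosen with earlier results of these data known, and the roles and the symbol families after the values were seen. Genes named were the 20 with the widest ratio, the 12 highest in WT, every member of a list or family, the 4 nearest to the limit on each side, the 4 with the widest WT spread, and Senp6. The remaining members were named by role.

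Counts were fitted with edgeR 4.0.16 (R 4.3.3; quasi-likelihood, TMM, genotype only, at least 10 counts in 2 samples, Benjamini-Hochberg adjustment). The alternatives were DESeq2 1.42.0, no filter, 10 counts in every sample, a replicate block, limma 3.58.1 on log2(RPKM + 1), leaving out each sample, and other limits of the rule. The edgeR script was tested on simulated data. TMM factors were 0.966 to 1.03. Replicates differed beyond sampling noise (chi-square per degree of freedom 49.7 in WT and 24.0 in Senp6-Mut). Promoters are from RefSeq (GRCm38.p6), and stretches of 50 bases were compared with GENCODE transcripts of GRCm38.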

Additional observations from a re-analysis of the deposited data

How the results depend on the processing

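The number of genes that the rule found followed its limits: 71 with a WT floor of 0.5 RPKM, 24 with a floor of 5 RPKM, 157 at 1.5 times, 12 at 3 times and 60 after division by the TMM factors. With each sample left out in turn it ran from 72 to 337, with 337 without WT replicate 2, 105 without Senp6-Mut replicate 2, 103 without Senp6-Mut replicate 1 and 72 without WT replicate 1. With a sample left out, a floor of 0.5 RPKM or a limit of 1.5 times, the 60 genes meet the rule by construction. Division by the TMM factors also kept all 60. The floor of 5 RPKM kept 24 of them and the limit of 3 times 12.

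No gene was lower in Senp6-Mut at an adjusted p of 0.05 by edgeR, with a filter of 10 counts in every sample (57 of the 60 tested) or by limma. At an unadjusted p of 0.05, 887 genes were lower by edgeR, 854 with that filter and 600 by limma. At the adjusted p of 0.05, DESeq2 gave 263 genes with 52 of the 60 among them, and edgeR with no filter 61 with 27. Leaving out a sample gave 37 to 1444 genes with 20 to 55 of the 60: 140 with 41 without WT replicate 1, 1444 with 55 without WT replicate 2, 87 with 27 without Senp6-Mut replicate 1 and 37 with 20 without Senp6-Mut replicate 2. In these fits the lone sample was assumed to vary like the other group. The cause of these changes was not tested.

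The replicate numbers are not said to pair the samples. The differences of replicates 1 and 2 in the 2 genotypes had a correlation of -0.06 across 14123 genes. This value cannot show whether samples were paired, since differences particular to 1 sample would hide a pairing. The fit with the replicate block gave 33 genes with 19 of the 60. The median log2 fold change of the 60 was -2.20, -2.22 by DESeq2, -2.10 with the block, -1.45 by limma on log2(RPKM + 1), which understates low genes, and -2.53 to -1.56 with a sample left out, the last without WT replicate 1. The direction of the 60 is fixed by the rule, so it is no sign of stability, and 59 of the 60 were tested without WT replicate 1 or without WT replicate 2. There are 2 samples a group, and what limits the precision was not tested.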
